A study of Mus musculus with 6 samples.

Results

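The genes described here encode the machinery that copies DNA in S phase, together with a few regulators of entry into that phase. They were taken by name from a list of 38 genes and not by their measured values, and each was read from its single-gene probe set with the highest mean over the 6 arrays. Of the 38 genes, 37 had such a probe set among the 12393 genes measured, and Gins2 was not analysed here. The study compared cochleae of mouse embryos with and without Igf1, the gene of a secreted growth factor related to insulin. Pools of cochleae were collected at embryonic day 18.5, and the dissected tissue held the otic capsule but not the vestibular organs. There were 3 wild type pools (Igf-1+/+) and 3 null pools (Igf-1-/-), each of 4 cochleae and each hybridised to 1 single-colour Affymetrix array. All embryos came from matings of heterozygous parents on a C57BL/6J background, and the null allele was present in every tissue. How the Igf1 allele was disrupted is not stated in the labels. One label field carries +/+ for all 6 samples, null ones included, and a slightly later age for wild type replicate 2, while titles and descriptions separate the genotypes and give a single age.

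Replication starts at origins that are bound by the origin recognition complex, which with Cdc6 and Cdt1 loads the MCM2-7 helicase in G1 phase. Cdc45, the GINS complex and Mcm10 turn the loaded helicase into a moving one, primase and the polymerases alpha, delta and epsilon copy the strands, and a ring of PCNA, placed by replication factor C, holds the polymerases on DNA. Many of these genes are known targets of E2F transcription factors, which act at the passage from G1 to S phase. In the cochlea, hair cells and their supporting cells leave the cell cycle well before birth, while mesenchyme, cartilage, glia and endothelium of the late embryonic cochlea still divide.

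The promoters of the replication genes were read in RefSeq's table of build GRCm38.p6, in which 32 of the 38 genes had an entry. In the 250 bases before the start, 8 of these 32 genes (25%) held at least 1 of 4 E2F motifs, TTTGGCGC, TTTCCCGC, TTTCGCGC or TTTGCCGC, on either strand. Over all 27025 genes of the table the share was 2.16%, and over all 32851 promoters 1.86%. The stretches that hold the motif are printed here because many replication genes are known E2F targets, although 24 of the 32 had none of the 4 motifs in this window. Each is written 5' to 3' on the strand of the gene with the motif in capitals. On a strand that runs the other way the motif appears as its reverse complement, and in Mcm6 and Mcm5 a pair of motifs overlaps.
Mcm6: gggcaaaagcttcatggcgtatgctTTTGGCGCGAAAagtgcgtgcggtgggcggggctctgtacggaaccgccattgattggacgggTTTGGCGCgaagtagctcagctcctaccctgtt
Mcm5: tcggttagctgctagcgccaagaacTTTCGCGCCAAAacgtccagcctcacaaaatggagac
Mcm7: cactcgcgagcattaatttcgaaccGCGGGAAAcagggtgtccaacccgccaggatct
Orc1: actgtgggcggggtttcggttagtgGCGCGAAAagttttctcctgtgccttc
Cdc6: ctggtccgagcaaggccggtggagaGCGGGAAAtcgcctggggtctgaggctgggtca
Pola1: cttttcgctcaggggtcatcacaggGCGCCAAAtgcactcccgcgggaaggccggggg
Rfc3: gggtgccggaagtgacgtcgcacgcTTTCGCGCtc
Uhrf1: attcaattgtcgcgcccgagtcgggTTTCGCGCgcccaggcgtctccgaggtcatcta
The Mcm6 stretch lies at chr1:128359720-128359840 on the minus strand and holds 3 motifs, which begin between 110 and 47 bases before the start. That of Mcm5 lies at chr8:75109331-75109392 on the plus strand, and that of Mcm7 at chr5:138172016-138172073 on the minus strand. Those of Orc1 (chr4:108579402-108579453), Cdc6 (chr11:98907988-98908045) and Uhrf1 (chr17:56304103-56304160) are on the plus strand. Pola1 (chrX:93632261-93632318) and Rfc3 (chr5:151651209-151651243) are on the minus strand, and the Rfc3 motif begins 10 bases before the start. All 8 stretches lie before the annotated start of their gene, and overlap with neighbouring genes was not examined. Another motif, the CCAAT box (CCAAT on either strand), was present in 21 of 32 members and in 37.5% of all genes, and the CHR motif of genes that peak in G2 and M phase (TTTGAA on either strand) in 4 of 32 members and 18.3% of all genes. A match describes the letters of this window and does not show that a factor binds there.

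Signal of the targeted gene was lower in every null array at each of its 3 probe sets, whose place relative to the disrupted part is not stated. At the Igf1 probe set with the largest difference the wild type arrays read 7.93, 8.09 and 8.14 (log2 signal after quantile normalization, the scale of all levels below) and the null arrays 7.14, 6.92 and 7.13. A two-sided exact permutation test of these 6 readings returned p = 0.1, below which 3 against 3 arrays cannot go. In the fit over all probe sets (limma) the adjusted p of this Igf1 probe set was 0.60. The tissue was recognised by its markers, with all 7 measured hair cell genes, all 7 of the cochlear epithelium, all 6 of neurons and all 6 of cartilage above background in both genotypes. Background was taken as the 95th percentile of the mean level of 64 receptor genes of smell and taste, which was 3.41. Of the hair cell genes Gfi1 (means of 3.50 in wild type and 3.73 in null) and Pou4f3 (3.72 in wild type) lay close to it. All 6 skeletal muscle markers were above background too, with mean levels from 6.74 for Myog to 12.05 for Acta1, so the pools also held muscle signal. Before normalization the array medians ran from 5.61 to 6.36, the lowest being null replicate 1.

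All 37 replication genes lay above that background in both genotypes. Their mean levels ran from 4.02 for Orc1 to 10.08 for Mcm7, with a median of 7.52, against 6.64 over all genes. The probe set of a median member stood at the 66.1 percentile of gene levels. Mcm7 and Pcna had the highest signals, and Orc1, Tyms, Cdc6 and Mcm10 were among the dimmest, but levels of different probe sets depend on their sequences and do not rank the genes by amount of RNA. In a pooled tissue, fewer cells in S phase and less RNA per cell cannot be told apart.

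**Figure D1:**
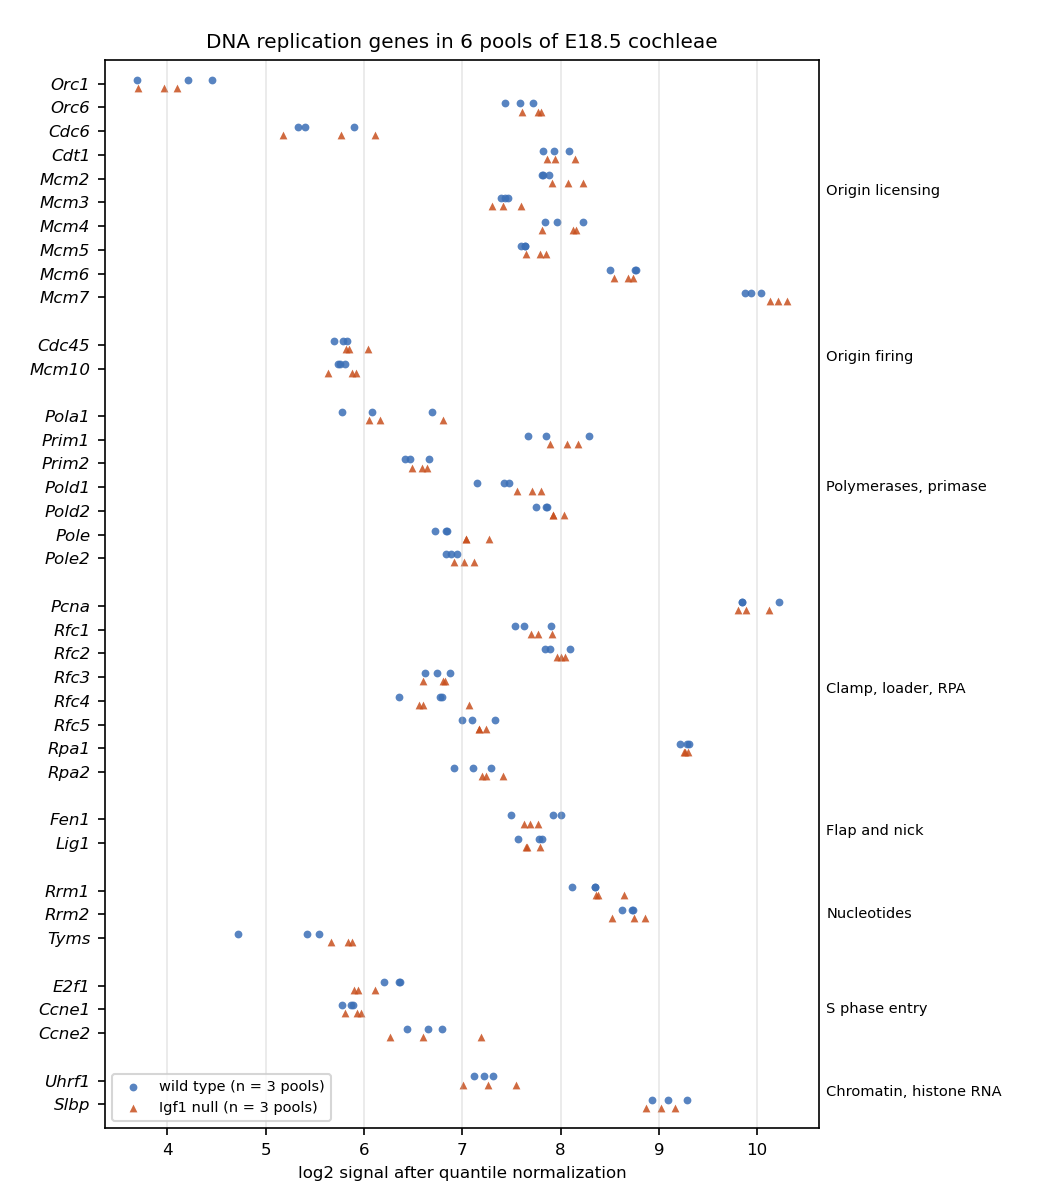
Log2 signal after quantile normalization (horizontal axis) of the 37 measured replication genes (rows, grouped by role) in the 3 wild type arrays (circles) and the 3 Igf1 null arrays (triangles). Signals ran from below 4 for Orc1 to above 10 for Mcm7, and the genotypes overlapped for 28 of the 37 genes.

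Whether cochleae without Igf1 differ in the expression of replication genes is the question this comparison addresses. No replication gene passed an adjusted p of 0.05 in limma with Benjamini-Hochberg adjustment over all genes, and the smallest adjusted p was 0.972. Of all 12393 genes none passed either (0%), while 612 (4.94%) had an unadjusted p under 0.05. In the members 3 of 37 had an unadjusted p under 0.05, with 2 higher in the null pools (Mcm7 and Pole) and 1 lower (E2f1). Among all genes 2.57% were higher and 2.37% lower at that p. With the replicate numbers as pairs in limma the 3 members were Pold1, Tyms and E2f1, beside 5.75% of all genes. No member passed the adjusted threshold in that fit either. The small differences that were measured leaned one way, since 29 members had the higher mean in the null pools and 8 the lower, whereas 48.7% of all genes had the lower mean there. The median difference, null minus wild type, was 0.06 on the log2 scale over the members and 0.0062 over all genes. With the values as deposited 27 of the 37 members were lower and their median was -0.09, on a scale where the median gene was at -0.14 and 7 members lay below it. In 8 members every null array exceeded every wild type array, against 5.62% of all genes, and in 1 member every null array was below, against 4.98%. The number of members with the lower mean was 14 without wild type replicate 2, 15 without null replicate 1 and 15 with array weights. The members at an unadjusted p under 0.05 in limma numbered 0 or 1 with any single array left out, beside 3.74 to 5.67% of all genes. Dropping wild type replicate 1 brought the median to 0.13, null replicate 2 to 0.12 and wild type replicate 2 to 0.03.

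**Figure D2:**
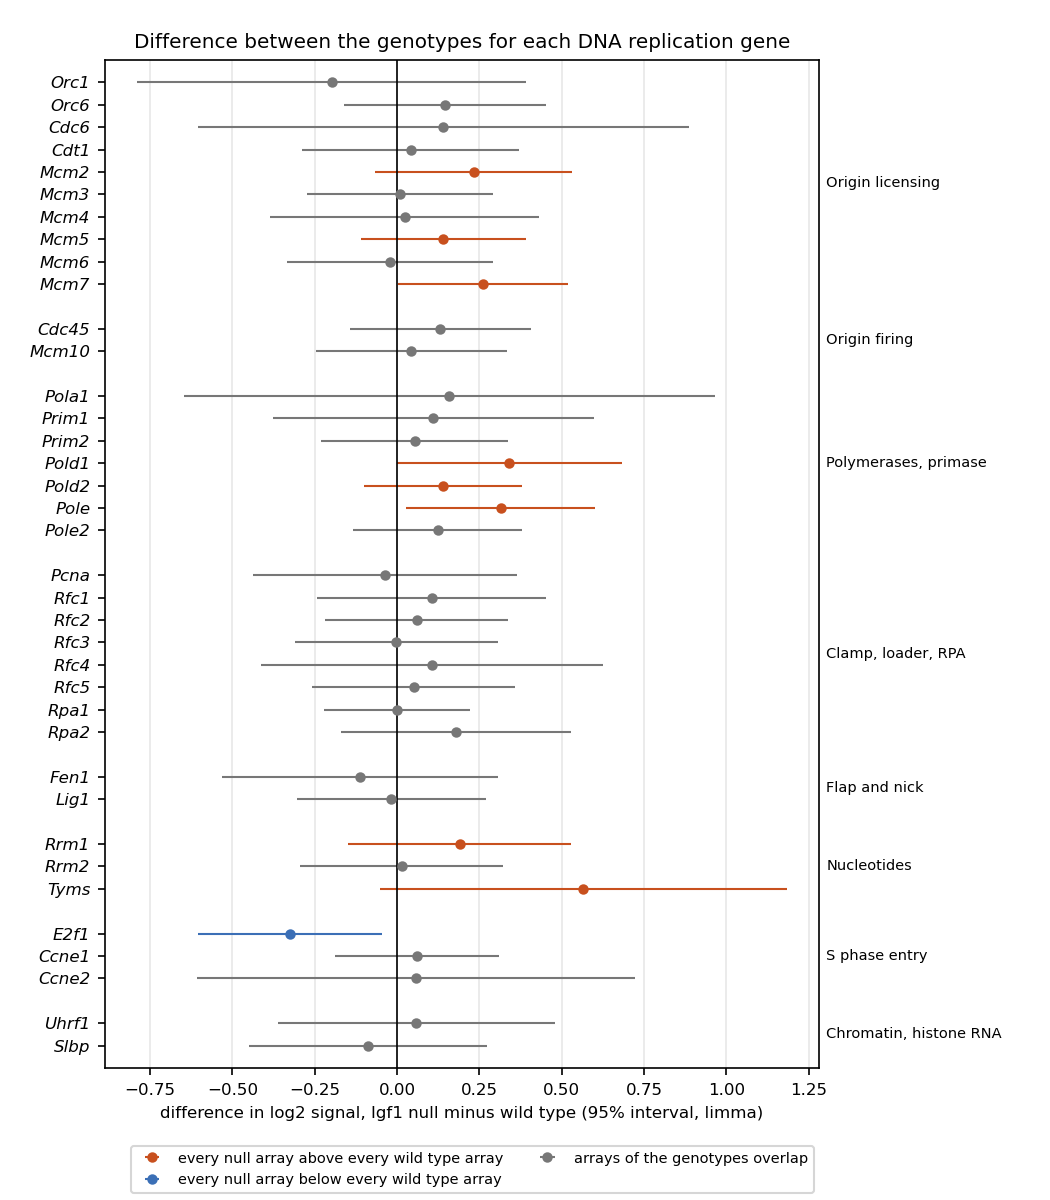
Difference in log2 signal, Igf1 null minus wild type, with its 95% interval from limma (horizontal axis), for each of the 37 replication genes (rows, grouped by role). Colour separates the 8 genes whose null arrays all lie above the wild type arrays, the 1 gene (E2f1) whose null arrays all lie below, and the 28 whose arrays overlap; no gene passed an adjusted p of 0.05.

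The intervals give a range for each difference, at the brightest probe set of a gene and after quantile normalization. For 27 of the 37 members the 95% interval lay within a 1.5-fold change either way, and for 36 within a 2-fold change. Tyms alone reached beyond 2-fold at these probe sets. At the dimmer probe set of Rrm1, also above background, the interval ran from -1.02 to 0.53, beyond 2-fold too. The median spread within a genotype was 0.13 log2 units (pooled SD) over the members, against 0.16 over the 5957 genes in the members' main range of level. Rpa1, a subunit of the complex that coats single-stranded DNA, was the steadiest member. Its signals were 9.31, 9.22 and 9.28 in wild type and 9.26, 9.30 and 9.26 in null arrays, a range of 0.09. The 95% interval of its difference ran from -0.22 to 0.22.

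Origin licensing genes came first in the order of replication. Of 10 members, 8 had the higher mean in the null pools, with a median difference of 0.09 (log2), or 0.0062 over all genes. Mcm7, a helicase subunit, gave the clearest separation of the group. It read 10.04, 9.94 and 9.88 in the wild type arrays and 10.30, 10.14 and 10.21 in the null arrays. Every null array was higher than every wild type array, and Mcm7 differed by 0.26 ± 0.10 (SE), 1.20 times the wild type level, with an adjusted p = 0.996 over all genes in limma. Mcm2, another helicase subunit, read 7.89, 7.81 and 7.82 in wild type and 8.23, 7.91 and 8.08 in null arrays. Again the genotypes did not overlap, by a margin of 1 close pair, and Mcm2 differed by 0.23 ± 0.12 (SE), or by 0.15 when null replicate 1 was dropped. Mcm5 read 7.60, 7.63 and 7.64 in wild type and 7.85, 7.79 and 7.65 in null arrays, with its lowest null array just above the highest wild type array, a difference of 0.14 ± 0.10 (SE).

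The other subunits of the same hexamer overlapped between the genotypes. Mcm3 had means of 7.43 ± 0.03 (SD, n = 3) for wild type and 7.44 ± 0.15 (SD, n = 3) for null pools. Mcm4 averaged 8.01 ± 0.20 (SD, n = 3) and 8.03 ± 0.20 (SD, n = 3). Mcm6 averaged 8.68 ± 0.15 (SD, n = 3) and 8.65 ± 0.10 (SD, n = 3). These 3 subunits therefore had almost equal means in both genotypes, with 95% intervals from -0.27 to 0.29 for Mcm3, from -0.39 to 0.43 for Mcm4 and from -0.33 to 0.29 for Mcm6. The mean over the 6 subunits was 8.26 ± 0.06 (SD, n = 3) for wild type and 8.36 ± 0.06 (SD, n = 3) for null arrays, with overlap. The sign of Mcm3, Mcm4 and Mcm6 turned under other scalings or with single arrays left out.

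Loading factors of the helicase did not separate the genotypes. Orc6, a subunit of the origin recognition complex, had means of 7.58 ± 0.14 (SD, n = 3) for wild type and 7.73 ± 0.10 (SD, n = 3) for null pools. Orc1, its largest subunit, was the dimmest member and had the lower mean in the null pools. It read 4.45, 3.70 and 4.21 in wild type and 3.70, 4.10 and 3.97 in null arrays. The highest reading was wild type, and the lowest readings of the genotypes were almost equal. The Orc1 difference was -0.20 ± 0.23 (SE, adjusted p = 0.998 in limma). Dropping wild type replicate 1 or 2 gave Orc1 differences of -0.03 and -0.41, and dropping null replicate 1 gave -0.09. Without both replicate 1 arrays, which carry title number 14, the Orc1 difference was 0.08. Cdc6, the loader ATPase, averaged 5.54 ± 0.31 (SD, n = 3) and 5.68 ± 0.47 (SD, n = 3). Cdt1, its partner, read 7.93, 7.82 and 8.08 in wild type and 8.15, 7.86 and 7.94 in null arrays, with the genotypes interleaved. Both genes varied more among pools of 1 genotype than between the genotypes.

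Helicase activation was represented by Cdc45 and Mcm10. Cdc45, which rides with the moving helicase, had means of 5.77 ± 0.07 (SD, n = 3) for wild type and 5.90 ± 0.12 (SD, n = 3) for null pools, a difference of 0.13 ± 0.11 (SE). Mcm10 differed by 0.04 ± 0.11 (SE). Neither separated the genotypes.

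Polymerase and primase genes all leaned one way. All 7 members had the higher mean in the null pools, with differences from 0.05 to 0.34 and a median of 0.14, where 48.7% of all genes were lower. With the values as deposited 3 of the 7 were higher and the median was -0.0072, still above that of all genes. Pole, the catalytic subunit of the leading-strand polymerase epsilon, read 6.85, 6.84 and 6.73 in wild type and 7.28, 7.04 and 7.04 in null arrays. Its null arrays were all higher, by 0.31 ± 0.11 (SE) on average, or 1.24 times the wild type level (adjusted p = 0.972 in limma). Pold1, the catalytic subunit of polymerase delta, read 7.42, 7.15 and 7.47 in wild type and 7.80, 7.56 and 7.71 in null arrays. Here too no null array fell among the wild type arrays, and Pold1 differed by 0.34 ± 0.14 (SE), 1.27 times the wild type level (adjusted p = 0.996 in limma). Pold2, the second subunit of polymerase delta, was also higher in each null array, by 0.14 ± 0.09 (SE). Pole2, an accessory subunit of polymerase epsilon, differed by 0.12 ± 0.10 (SE). Pola1, which encodes the catalytic subunit of polymerase alpha, differed by 0.16 ± 0.32 (SE), and the primase genes Prim1 and Prim2 by 0.11 ± 0.19 and 0.05 ± 0.11 (SE). Those last 4 genes overlapped between the genotypes. Without wild type replicate 2 the number with the higher mean was 5 of 7, and without null replicate 1 it was 6. Dropping wild type replicate 1 raised the group's median to 0.29.

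The sliding clamp, its loader and the single-strand binding proteins showed no separation. Pcna, the clamp, is widely used as a marker of dividing cells and was among the brightest members. It read 10.22, 9.85 and 9.85 in wild type and 10.12, 9.89 and 9.80 in null arrays. In both genotypes replicate 1 was the highest, and the difference between genotypes was -0.04 ± 0.16 (SE), with a 95% interval from -0.44 to 0.36. The 5 loader genes Rfc1 to Rfc5 differed by between -0.0024 (Rfc3) and 0.11 (Rfc4). Rpa2, the middle subunit of the single-strand binding complex, differed by 0.18 ± 0.14 (SE). All 8 genes of this group overlapped between the genotypes, and 6 had the higher mean in the null pools. That number was 8 without wild type replicate 1 and 4 without wild type replicate 2, and with the values as deposited it was 1.

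Fen1 and Lig1, which trim and join the fragments of the lagging strand, had slightly lower means in the null pools. Fen1 read 7.93, 8.01 and 7.49 in wild type and 7.69, 7.63 and 7.77 in null arrays. Wild type replicate 3 held the lowest reading of all, so the genotypes overlapped, and Fen1 differed by -0.11 ± 0.17 (SE). Dropping wild type replicates 1, 2 or 3 gave Fen1 differences of -0.05, -0.01 and -0.27. Lig1 differed by -0.02 ± 0.11 (SE).

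Enzymes that supply DNA precursors included the member with the largest difference. Tyms, thymidylate synthase, read 5.42, 4.72 and 5.54 in wild type and 5.88, 5.66 and 5.84 in null arrays. Each null array was higher than each wild type array, by 0.57 ± 0.24 (SE) on average, 1.48 times the wild type level, with wild type replicate 2 far below the rest (adjusted p = 0.998 in limma). Dropping wild type replicate 2 brought the Tyms difference to 0.31, below that of Pole, 0.33, in the same setting. A brighter probe set that matches both Tyms and its pseudogene Tyms-ps, and so was outside the selection, did not share this. There the wild type arrays read 7.29, 6.93 and 6.89 and the null arrays 7.31, 6.79 and 7.07, a difference of 0.02 ± 0.20 (SE). Signal of the gene and of its pseudogene cannot be separated at that probe set. Rrm1, the large subunit of ribonucleotide reductase, read 8.35, 8.12 and 8.35 in wild type and 8.65, 8.38 and 8.36 in null arrays, without overlap but with the nearest arrays almost equal, and differed by 0.19 ± 0.13 (SE). Rrm2, the small subunit, which is made mainly in S phase, read 8.63, 8.73 and 8.72 in wild type and 8.85, 8.53 and 8.74 in null arrays. Its null arrays were both the highest and the lowest, and its difference was 0.01 ± 0.12 (SE).

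Among the regulators of S phase entry, E2f1 had the lower mean in the null pools. It encodes a transcription factor that turns on replication genes at the entry to S phase, and it was the member with the smallest p. Its wild type arrays read 6.20, 6.37 and 6.36 and its null arrays 5.90, 6.11 and 5.94. Every null array was lower, by 0.33 log2 units on average, and the E2f1 difference of -0.33 ± 0.11 (SE), 0.798 of the wild type level, had an adjusted p = 0.972 in limma. At its dimmer probe set E2f1 differed by 0.13 ± 0.27 (SE). Ccne1 and Ccne2 encode the E cyclins, which activate the kinase Cdk2 at the same step. Ccne1 differed by 0.06 ± 0.10 (SE) and Ccne2 by 0.06 ± 0.26 (SE), and both overlapped between the genotypes. Null replicate 1 gave the highest Ccne2 reading, 7.19, and null replicate 2 the lowest, 6.27.

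Uhrf1, which guides the copying of DNA methylation behind the fork, had means of 7.21 ± 0.10 (SD, n = 3) for wild type and 7.27 ± 0.27 (SD, n = 3) for null pools. Slbp, the protein that binds the stem-loop of histone messages in S phase, read 9.29, 8.93 and 9.09 in wild type and 9.02, 8.87 and 9.16 in null arrays. The arrays were interleaved, and the difference was -0.09 ± 0.14 (SE).

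Differences were also set out by the promoter motif. The 8 genes whose promoter stretches are printed above had a median difference of 0.10, and 2 of them (Mcm5 and Mcm7) had null arrays entirely above wild type. The 24 other genes with a promoter entry had a median difference of 0.08, and 5 were entirely above. Over all genes the median difference was 0.0062, and 5.62% had null arrays entirely above wild type. No test was made of this contrast.

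Probe sets other than the brightest gave a less even picture. The members had 68 single-gene probe sets, of which 31 in 22 genes were not the brightest of their gene. Of the 25 above background in both genotypes, 15 were higher and 10 lower in the null pools, with a median difference of 0.02 and a range from -0.28 to 0.36, and 11 had the sign of the brightest probe set. None of the 25 had an unadjusted p under 0.05. At Mcm7 all 4 probe sets were higher in the null pools, by 0.06 to 0.36, and both probe sets of Mcm2 (0.23 and 0.27) and of Pold1 (0.34 and 0.22) were. Rrm1 turned sign at its dimmer probe set (-0.24 ± 0.31 SE). Rrm2 at its second probe set was lower in every null array (-0.28 ± 0.12 SE), unlike its brightest. The 6 probe sets not above background differed by up to 2.55 either way (Slbp 2.55, Tyms 2.04 and 1.38, Mcm10 0.58, Cdt1 -1.74 and Rrm2 -2.46), 2 of the 6 had an unadjusted p under 0.05 and none passed the adjusted threshold; no change of expression is read from them. Several of the probe sets used, such as those of Mcm7 and Pold1, are of the kinds that the manufacturer marks as able to match further transcripts.

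**Figure D3:**
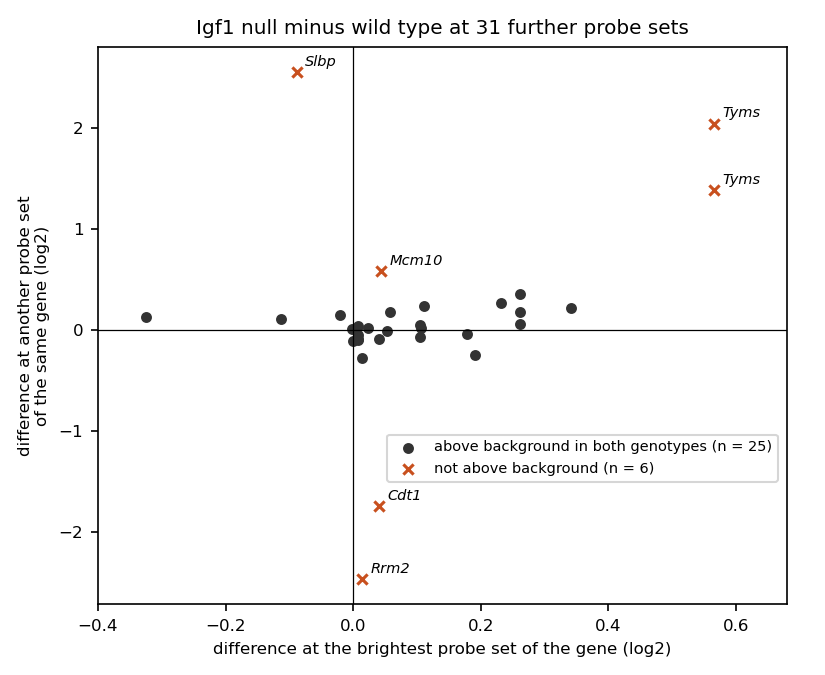
Difference in log2 signal, Igf1 null minus wild type, at the brightest probe set of a gene (horizontal axis) and at each of its other probe sets (vertical axis), for 31 probe sets of 22 replication genes. The 25 above background (dots) lie between -0.28 and 0.36, and the 6 not above background (crosses, named) reach from -2.46 to 2.55.

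The members as a group also differed from pool to pool within a genotype. In null replicate 1 their median deviation from each gene's mean over the 6 arrays was 0.11 log2 units, and 26 of 37 members were above their mean. In wild type replicate 1 the median deviation was 0.05, with 21 members above. Wild type replicate 2 was the lowest array at -0.12, with 6 members above their mean. Null replicate 2 stood at -0.04 (16 above), wild type replicate 3 at -0.04 (11 above) and null replicate 3 at 0.06 (24 above). Over all 12393 genes the median deviations ran from -0.0031 to 0.03.

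**Figure D4:**
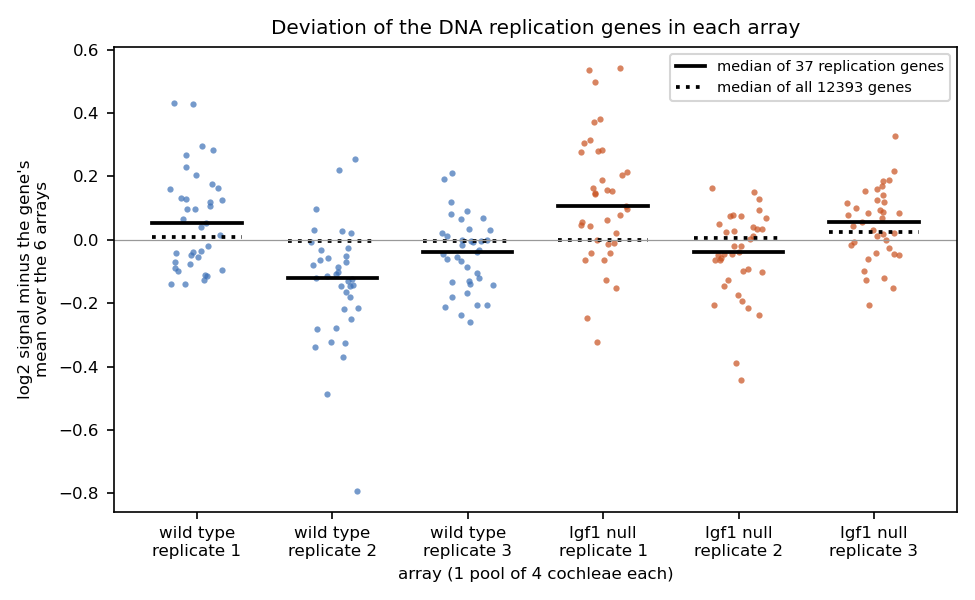
Log2 signal minus the gene's mean over the 6 arrays (vertical axis) for each of the 37 replication genes (points) in each array; solid bars are the median of the members and dotted bars that of all 12393 genes. The members' medians ran from -0.12 in wild type replicate 2 to 0.11 in null replicate 1.

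Within each genotype the same replicate number tended to be high or low. Replicate 1 was the highest of the 3 wild type arrays for 22 of 37 members and the highest of the 3 null arrays for 19. Replicate 2 was the lowest of the wild type arrays for 20 members and of the null arrays for 21. For 14 members (37.8%), among them Mcm2, Mcm4, Cdc6, Cdt1, Orc6, Pola1, Pold1, Tyms and Slbp, replicate 2 was the lowest in both genotypes, as for 14.7% of all genes. For 10 members (27.0%), among them Pcna, Mcm7, Pole and Ccne2, replicate 1 was the highest in both, as for 14.3% of all genes. The pattern was not particular to the members. Replicate 2 was the lowest in both genotypes for 42.6% of 47 other replication and S phase genes and 56.5% of 23 G2 and M phase genes, both described below. Replicate 1 was the highest in both for 29.8% and 34.8% of these lists. In the titles replicate 1 of both genotypes carries the number 14 and replicates 2 and 3 the number 16. These are descriptions with no test. Markers of some other tissues also varied among these arrays. The mean level of the 6 neuron markers was 10.38 in wild type replicate 2 and 9.62 in null replicate 2, the highest of each genotype, and 8.50 to 9.22 in the other 4 arrays. The mean of the 4 measured Schwann cell markers was likewise highest in replicate 2 of each genotype, at 9.46 and 9.11. In null replicate 2 this held for Fabp7 and Mbp, while Sox10 (8.07) and Erbb3 (9.02) had their lowest null reading there. The mean of the 6 skeletal muscle markers was 10.24, 9.02 and 10.83 in wild type and 10.79, 10.15 and 9.24 in null arrays. It was lowest in replicate 2 of wild type but in replicate 3 of null pools. Whether the content of nerve tissue or muscle in a pool bears on the replication genes was not tested.

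Markers of several other cell types differed between the genotypes in mean. The 9 marrow and myeloid markers averaged 4.45 to 4.81 in the wild type arrays and 4.93 to 5.05 in the null arrays. Mpo, Elane, Prtn3 and Ctsg, the markers of dividing granulocyte precursors, were not above background in either genotype, and over the 5 markers that were, the arrays overlapped, at 7.20 to 7.66 and 7.39 to 8.08. The 7 erythroid markers averaged 3.69 to 3.89 in wild type and 3.12 to 3.47 in null arrays. Hba-a1, Ermap and Hemgn were not above background, and over the other 4 the arrays still did not overlap, at 5.31 to 5.46 and 4.25 to 4.98. All 6 cartilage markers, all 5 osteoblast markers and all 5 endothelial markers had the lower mean in the null pools, with median differences of -0.30, -0.20 and -0.17. Among them Dmp1, a gene of late osteoblasts and osteocytes named after its values were seen, had the widest gap of the osteoblast list, -1.52 ± 0.36 (SE), with an adjusted p = 0.884 in limma. Of the 7 cochlear epithelium markers 6 had the higher mean, with a median difference of 0.25. The list means of these 4 cell types overlapped between the genotypes. RNA quality was read from beta-actin (Actb), as log2 signal at the 3' minus the 5' control. This gap was 0.71 to 0.80 in wild type and 0.86 to 1.08 in null arrays, without overlap (p = 0.1 by an exact permutation test). For Gapdh the same gap overlapped, at 0.19 to 0.32 in wild type and 0.18 to 0.52 in null arrays (p = 0.5 by the exact test). The part of cell composition and of RNA quality in the values of the replication genes was not tested.

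Other genes of replication and S phase were set beside the members. From a list of 61 further genes 47 were measured, 29 with the higher and 18 with the lower mean in the null pools, and a median difference of 0.03. None of these 47 passed an adjusted p of 0.05, and none had an unadjusted p under 0.05, where 4.94% of all genes had. Pola2, the second subunit of polymerase alpha, came nearest (0.30 ± 0.12 SE, adjusted p = 0.996 in limma). Pclaf, a partner of PCNA, differed by 0.18 ± 0.11 (SE) and Wdhd1, which ties polymerase alpha to the helicase, by 0.17 ± 0.12 (SE). On the other side Mcmbp, which binds MCM proteins, differed by -0.24 ± 0.13 (SE), Cdca7 by -0.17 ± 0.17 (SE), and Mcm9, not above background, by -1.57 ± 1.31 (SE). Their median moved to -0.0040 when wild type replicate 2 was dropped and to 0.08 for wild type replicate 1. Dropping null replicate 1, 2 or 3 gave 0.0077, 0.05 and 0.01 in that order, and the unnormalized values gave -0.11. No test was made between this list and the members.

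Genes of the next phases of the cycle leaned the other way. Of 23 measured G2 and M phase genes 19 had the lower mean in the null pools, with a median difference of -0.08, against 0.06 for the replication genes. No G2 and M phase gene passed an adjusted p of 0.05 or had an unadjusted p under 0.05. Aurkb, a mitotic kinase, differed by -0.32 ± 0.16 (SE), the kinesin gene Kif23 by -0.20 ± 0.11 (SE) and Hmmr by -0.21 ± 0.15 (SE). In the other direction Foxm1, a transcription factor of mitotic genes, differed by 0.23 ± 0.23 (SE), Kif11 by 0.04 ± 0.19 (SE) and the mitotic kinase gene Cdk1 by 0.025 ± 0.15 (SE). Null replicate 2 held the lowest reading of 18 of the 23 genes, and when it was dropped the split became 12 lower to 11 higher and the median -0.03. Without wild type replicate 1 the median was -0.04, with 14 lower, and dropping either wild type replicate 2 or null replicate 1 brought it to -0.15. Of the replication genes 7 of 37 were lowest in null replicate 2. Over the arrays of both genotypes, wild type replicate 2 was lowest for 14 of 37 replication genes, with a median deviation of -0.12. It was lowest for 1 of 23 G2 and M phase genes, with a median deviation of -0.03. Among the wild type arrays alone it was lowest for 20 of 37 replication genes and 15 of 23 G2 and M phase genes. From the wild type mean the median deviations there were -0.06 and -0.09, so both lists were low in that array. The difference between the lists was not tested.

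**Figure D5:**
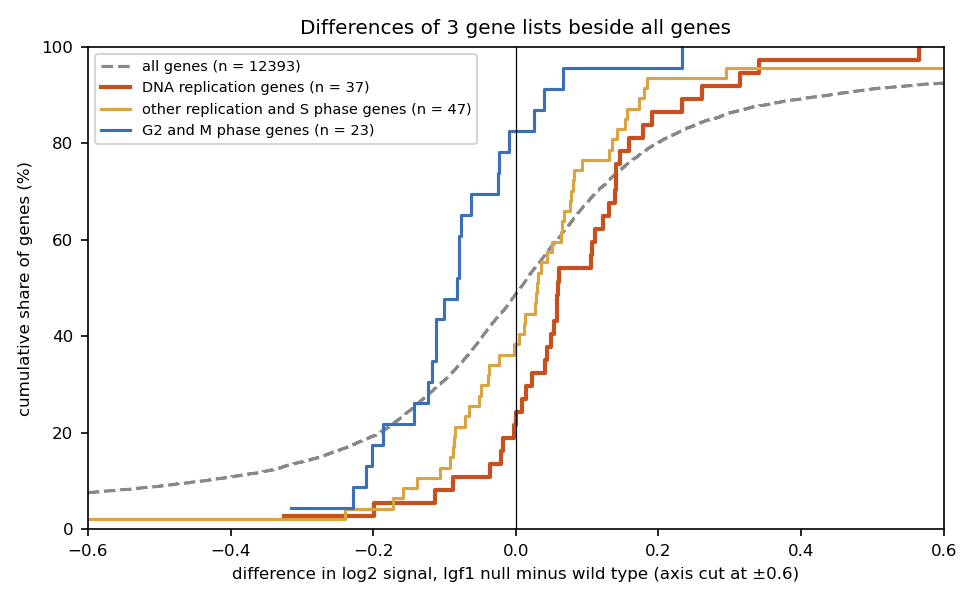
Cumulative share of genes (vertical axis, percent) by difference in log2 signal, Igf1 null minus wild type (horizontal axis, cut at 0.6 either way), for 37 replication genes, 47 other replication and S phase genes, 23 G2 and M phase genes and all 12393 genes. At 0 the curves stand at 21.6% for the replication genes, 38.3% for the wider list, 82.6% for G2 and M phase and 48.7% for all genes.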

How the data were processed

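RNA of 6 pools, each of 4 cochleae, was hybridised to 1 Affymetrix array per pool, per the labels' protocols. Values were deposited on a log2 scale (base inferred from their range), 1 for each probe set on each array; how the authors summarised, background-corrected and scaled them is not given in the sources used here. Arrays were quantile normalized, because their deposited medians differed. Of 22690 probe sets 64 controls were left out, and 20380 of the rest were annotated to 1 gene, 691 to several and 1555 to none; symbols were updated by Entrez identifier in RefSeq's table of GRCm38.p6. Each gene was represented by its probe set of highest mean. Genotypes (from the titles) were then compared by two-sided moderated tests (limma 3.58.1, R 4.3.3, lmFit with eBayes and genotype as the only term), adjusted by Benjamini-Hochberg over all genes at a threshold of 0.05, and other probe sets in a fit over all 22626 probe sets. The procedure was tested on simulated data with added shifts far larger than any difference of a member. That test does not show that differences of the members' size would be detected. Single values had an exact permutation test. Pools are separate per the labels, and 3 arrays per genotype limit the precision.

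Titles give replicate numbers 1 to 3 in each genotype. They also carry another number, 14 for replicate 1 of both genotypes and 16 for replicates 2 and 3. What that title number stands for is not said in the titles. Over the brighter probe sets, deviations from the genotype means correlated at 0.19, 0.38 and 0.14 for arrays of the same number. Arrays of different numbers correlated at -0.26 to 0.09, so the numbers were taken to pair the arrays in a further fit. The titles state no pairing, and this choice rests on the same values that were fitted. Wild type replicate 3 correlated at 0.14 with null replicate 3 and at 0.09 with null replicate 1. The p values, SE and intervals given for the genes are from the fit without pairs unless the pairing is named. Members and gene lists were chosen with earlier results of these data known. All members were named; per-array values were given for the 4 members of smallest p in each direction, Pcna, the MCM2-7 genes and members whose probe sets disagree in sign by over 0.5, and also for Rrm1 and Rpa1, chosen after their values were seen. From the other lists the 3 genes of smallest p in each direction were named. Alternatives were other scalings, blocks, variance models and weights, other probe set and level rules, a pseudocount of 32 and leaving out arrays; the G2 and M phase list was put through them after the data were seen.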

Additional observations from a re-analysis of the deposited data

How the results depend on the processing

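The count of replication genes past an adjusted p of 0.05 was 0 under each of the 17 alternatives run, and that of all genes was 0 under each but 1, with a range of 0 to 1 over single arrays left out (1 without null replicate 3) and 0 at an adjusted p of 0.1. In limma the main count at an unadjusted p under 0.05 was 3 members and 612 genes. With the replicate block, the paired fit, 713 genes had an unadjusted p under 0.05, and 0 genes and 0 members passed the adjusted threshold. The members at an unadjusted p under 0.05 were then Pold1, Tyms and E2f1 in place of Mcm7, Pole and E2f1, the smallest adjusted p of a member was 0.826, and no call at the adjusted threshold changed. The direction of the members' median turned under 1 setting. With the values as deposited the members' median was -0.087 and 27 were lower, the wider list's median was -0.11 and that of G2 and M phase -0.22, while all genes had a median of -0.14. The number of members lower was 4 with median centring and 15 with array weights, and ran from 6 to 15 with single arrays left out. Leaving out single arrays gave medians from 0.028 to 0.13 for the members, from -0.0040 to 0.082 for the wider list and from -0.15 to -0.029 for G2 and M phase. With the 6 bases GGCGGG, on either strand, in place of the 4 motifs, 78.1% of the 32 members matched, and 35.1% of all genes. These 6 bases are not contained in any of the 4 motifs, and Cdc6 and Rfc3 held a motif without them. Signs turned for most members in at least 1 alternative, for some of them only with the values as deposited. Rrm1, at 0.19 ± 0.13 (SE), turned when probe sets were averaged, and Cdc45 (0.13 ± 0.11) and Pole2 (0.12 ± 0.10) with the values as deposited. With the values as deposited Mcm3 stood at -0.13, Mcm4 at -0.10, Rrm2 at -0.12 and Cdt1 at -0.088. With array weights they stood at -9.0e-04, -0.038, -0.059 and -0.060. With all probe sets of each gene averaged, which includes probe sets not above background, Mcm3 was at -0.037, Mcm6 at 0.064, Rrm2 at -0.91, Cdt1 at -0.60 and Slbp at 1.23. With median centring Mcm6 was at 0.018 and Pcna at 0.033. Without the arrays of title number 14 (replicate 1 of both genotypes), Mcm6 was at 0.011, Rrm2 at -0.093, Cdt1 at -0.050, Slbp at 0.0029 and Orc1 at 0.080. With single arrays left out the differences ran from -0.070 to 0.074 for Mcm3, from -0.061 to 0.14 for Mcm4, from -0.11 to 0.034 for Mcm6, from -0.13 to 0.088 for Pcna, from -0.059 to 0.11 for Rrm2, from -0.042 to 0.11 for Cdt1 and from -0.17 to 0.0049 for Slbp. The cause of these shifts was not tested. Only Mcm2, Mcm5, Mcm7, Pold1, Pold2, Pole, Rpa2, Orc6, Tyms, Fen1 and E2f1 kept their sign under every alternative in which they were tested. With 3 arrays per genotype, the 95% intervals of 27 of the 37 members lay within a 1.5-fold difference at their brightest probe sets in the main fit. Those of the others, among them Orc1, Cdc6, Pola1, Tyms and Ccne2, reached beyond it.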
